A study of Arabidopsis thaliana with 8 samples.

Results

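PSAN (AT5G64040) encodes subunit N of photosystem I in Arabidopsis thaliana. It was taken as the feature that the platform annotation assigns to this gene alone. This was 1 feature of 3439 on the array, and 1 of the 692 features with 1 gene. No feature lists PSAN together with other genes. RNA from 8 samples of ecotype Columbia 0 was hybridised to 1-channel arrays: 4 from wild type (WT) plants and 4 from the double mutant psah2k, with replicate numbers 1 to 4 per genotype. The line name points to photosystem I subunits H and K, while the sample descriptions name E1 and K, and none of these genes has a feature of its own, so the genotype was not checked from its targeted transcripts. No source used here gives the organ, age, growth conditions or mutant alleles. None says whether separate plants stand behind the samples of a genotype, and p-values then reflect only the spread among these samples, possibly a technical one.

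Photosystem I sits in the thylakoid membrane and uses light to move electrons from plastocyanin, on the lumen side, to ferredoxin, on the stroma side. Most of its small subunits are encoded in the nucleus and imported into the chloroplast. Subunit N is the one that lies wholly in the thylakoid lumen, where it is needed for efficient interaction with plastocyanin, and it reaches the lumen through the twin-arginine pathway. Subunits H and K are membrane subunits at other edges of the complex: H is needed for docking of the mobile light-harvesting complex during state transitions, and K takes part in binding the photosystem I antenna. Subunit E is a stromal subunit near the ferredoxin site.

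The PSAN signal was higher in psah2k than in WT on every array. The deposited intensities, on a linear scale with a ceiling of 100, on WT arrays 1 to 4 were 4.93, 5.25, 3.34 and 3.91. Those of psah2k arrays 1 to 4 were 10.9, 12.0, 10.7 and 14.1. The groups did not overlap, and the dimmest psah2k array was 2.04 times as bright as the brightest WT array. The mean was 4.36 ± 0.884 in WT and 11.9 ± 1.55 in psah2k (SD, n = 4 each), a ratio of 2.74. The exact permutation test, two-sided, gave p = 0.0286, and a design of 4 against 4 cannot give less. The coefficient of variation was 20.3% in WT and 13.0% in psah2k, so the arrays of a genotype scattered far less than the genotypes differed. In such bulk samples, a higher level per cell and a larger share of cells that express the gene cannot be told apart.

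**Figure D1:**
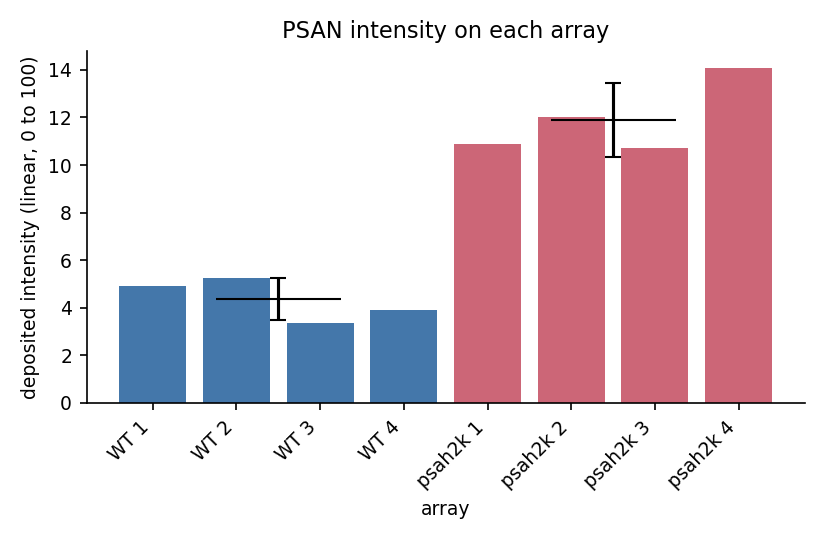
Bars show the deposited PSAN intensity (linear scale) on each of the 4 WT arrays (blue) and 4 psah2k arrays (red); black marks give the mean of each genotype with its SD. The WT arrays lie between 3.34 and 5.25 and the psah2k arrays between 10.7 and 14.1.

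This direction was uncommon in the deposited values. Of the 2353 features tested (those with at least 3 values above 0 in each genotype), 7.18% had every psah2k array above every WT array, and 72.6% had every psah2k array below. The median intensity of an array was between 0.304 and 0.336 in WT and between 0.0506 and 0.0582 in psah2k, and between 448 and 1014 features were listed at 0. PSAN thus went the other way from most features. The drop did not reach the 99th percentile of an array, which was 8.89 to 11.1 in WT and 12.3 to 15.9 in psah2k. PSAN stood on average at 0.436 times this percentile in WT and 0.860 times in psah2k. A log2 change at least as large as that of PSAN (1.47) was found for 0.765% of the tested features, PSAN included. Among those with 1 gene, AT5G38360 and AT2G39000 were the others, with log2 changes of 1.59 and 1.98. AT5G38360 was brighter, at 12.0 in WT and 36.2 in psah2k. AT2G39000 was close to the floor, at 0.0291 and 0.0790, with 1 array at 0. Of the 446 tested features with a WT mean of at least 1, 10 had a change this large, PSAN included. No source used here says how the authors scaled the arrays, and the part of that scaling in these values was not tested.

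The place of PSAN within each array does not move with any scale factor for the whole array. On WT arrays 1 to 4, 79, 75, 106 and 95 of the 3439 features were brighter than PSAN. On psah2k arrays 1 to 4, 47, 43, 38 and 31 were. The groups again did not overlap. Expressed as a percentile rank, PSAN stood at 97.4 ± 0.418 in WT and 98.8 ± 0.201 in psah2k (SD, n = 4 each). The difference was 1.42 percentage points (exact permutation test, two-sided, p = 0.0286), with 4 of 4 psah2k arrays above all WT arrays. By this measure 31.2% of tested features had every psah2k array above every WT array, so the direction of the rank change is shared with many features. The rank is capped at 100, which leaves a bright feature little room to rise.

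**Figure D2:**
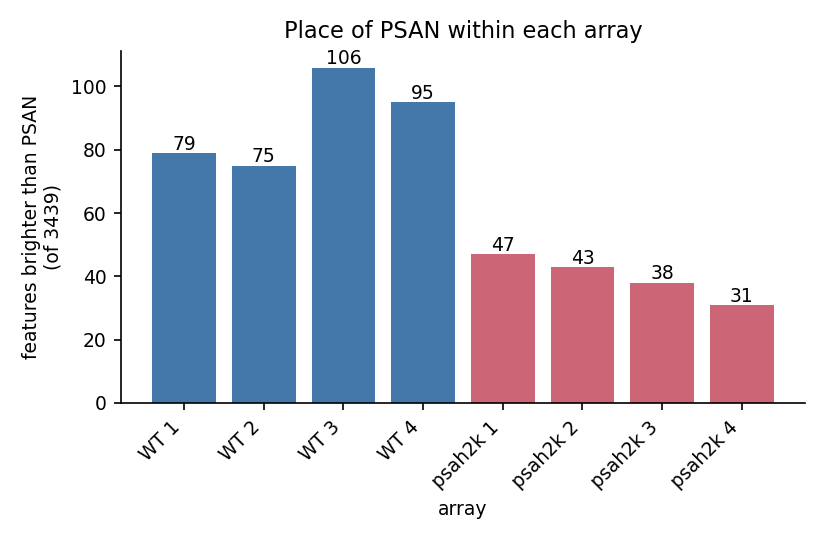
Bars give the number of features brighter than PSAN on each array, of 3439; fewer means a higher place. The WT arrays (blue) range from 75 to 106 and the psah2k arrays (red) from 31 to 47.

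By mean intensity, PSAN was the 17th brightest of the 692 features with 1 gene in WT and the 9th brightest in psah2k. Of the 85 features brighter than PSAN in WT, 38 were also brighter in psah2k and 47 were not, while 1 feature, without a gene name here, moved from below PSAN to above it. The 8 genes that stayed brighter were PSBW, LHB1B2, AT4G31530, AT4G22830, AT2G27290, AT4G17070, AT5G38360 and AT3G26630. PSBW is a small subunit of photosystem II, and LHB1B2 is a light-harvesting chlorophyll protein of photosystem II. The 8 that PSAN passed were NdhS, a plastid NDH subunit that takes part in ferredoxin binding, the PsbP-family gene AT1G76450, PRA1.B6, AT1G73120, AT2G46220, AT4G19900, AT4G32060 and AT5G50350. The order of PSAN and AT5G50350 in psah2k is not settled by these arrays: their means were 11.9 ± 1.55 and 11.2 ± 2.56 (SD, n = 4 each).

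Genes of like brightness in WT did not share the change as a group. Only features with 1 gene and values above 0 on every array were eligible here. The 20 of these that were nearest to PSAN in mean WT intensity lay between 2.42 and 6.86 in WT. Their log2 changes on the deposited scale ran from −6.57 to 1.12 with a median of −0.38, and none of the 20 reached the 1.47 of PSAN. Of the 20, 4 had every psah2k array above every WT array, 8 had every psah2k array below, and in the others the genotypes overlapped. Over all tested features the shares were 7.18% above and 72.6% below, so these 20 were less often dimmer in psah2k. The tested features could be at 0 on some arrays, however, while a gene at 0 on any array could not enter the 20. The 4 that were higher were RAP74, which encodes the large subunit of the general transcription factor TFIIF (log2 1.12), AT5G50350 (1.04), the geranylgeranyl reductase gene AT1G74470 (0.76) and AT3G06570 (0.61).

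**Figure D3:**
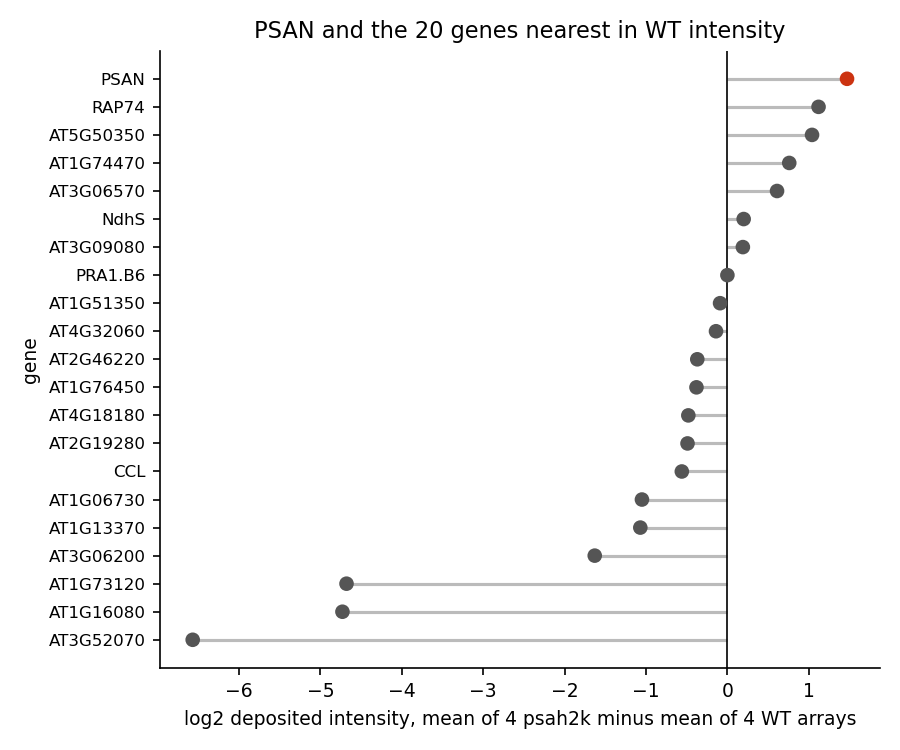
Points give the difference of mean log2 deposited intensity, 4 psah2k minus 4 WT arrays, for PSAN (red) and the 20 genes nearest to it in WT intensity (grey). PSAN is at the top with 1.47, the next gene is RAP74 with 1.12, and AT3G52070 is lowest with −6.57.

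The immediate neighbours of PSAN in WT brightness went in opposite directions. Just above it stood AT1G73120, with 4.41 ± 0.684 in WT and 0.185 ± 0.0902 in psah2k, PRA1.B6, a member of the prenylated RAB acceptor family, and AT5G50350. PRA1.B6 was nearly level, at 5.09 ± 0.557 and 5.21 ± 1.37, while AT5G50350 went from 5.34 ± 0.268 to 11.2 ± 2.56. Just below stood AT1G16080, with 2.44 to 4.94 on the WT arrays and 0.0655 to 0.227 on the psah2k arrays, AT3G06570, with 3.64 ± 0.137 and 5.61 ± 0.931, and AT3G52070, with 3.25 ± 0.207 and 0.0514 ± 0.0373 (SD, n = 4 each). Of these 6 genes, 3 were thus dimmer and 2 brighter on every psah2k array than on any WT array, and 1 overlapped. Over all tested features 72.6% were dimmer and 7.18% brighter in this way.

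Set against the median of the 20 on the same array, PSAN stood 0.56, 0.55, 0.30 and 0.46 log2 units higher on WT arrays 1 to 4. On psah2k arrays 1 to 4 it stood 1.89, 1.99, 2.26 and 2.59 higher. PSAN thus drew away from its neighbours on each psah2k array, by 1.71 log2 units on average (exact permutation test, two-sided, p = 0.0286, higher in 4 of 4 arrays). A set chosen on WT brightness can favour genes that are dimmer elsewhere. The 20 were therefore also chosen on the mean of the quantile-normalized values over all 8 arrays, again only from genes above 0 on every array. Their median log2 change was then 0.19, and 12 of the 20 had a change above 0. Every psah2k array was above every WT array for 8 of them and below for 3, against 7.18% and 72.6% of all tested features. Of this set, 1 gene (AT5G38360) exceeded PSAN, and PSAN drew away from the set median by 1.37 (p = 0.0286 by the same exact test).

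**Figure D4:**
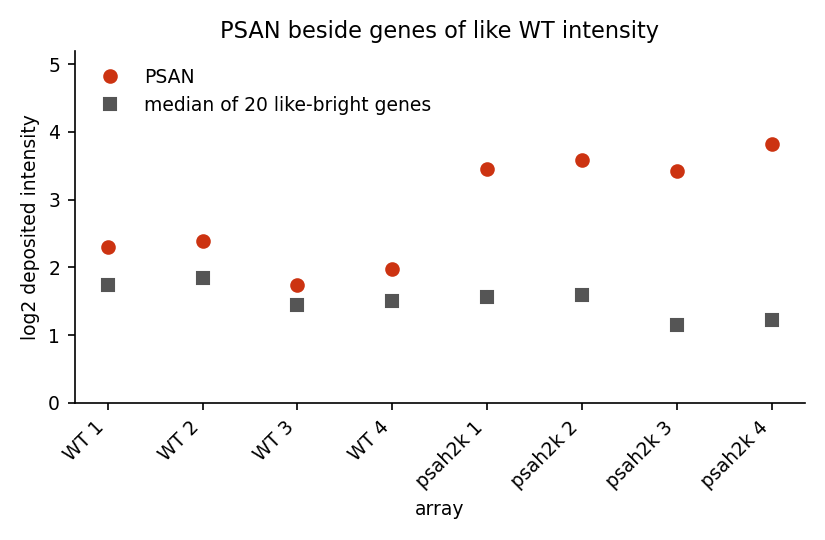
For each array, the log2 deposited intensity of PSAN (red circles) and the median of the 20 genes nearest to it in WT intensity (grey squares). The distance is 0.30 to 0.56 on the WT arrays and 1.89 to 2.59 on the psah2k arrays.

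In the fit over the whole array, PSAN was called higher in psah2k. After quantile normalization, which gives every array the same distribution, the log2 values of PSAN were 2.36, 2.44, 1.95 and 2.11 in WT 1 to 4. In psah2k 1 to 4 they were 2.91, 2.98, 3.40 and 3.67. The genotypes did not overlap on this scale either. The log2 fold change was 1.02 (SE 0.212, limma adjusted p = 0.00490 over 2353 features). The same test called 26.3% of the features higher and 53.0% in either direction, and PSAN was 400th of the 620 higher calls by the size of its fold change, so neither the call nor its size is uncommon on this scale. The log2 fold change was 1.47 without scaling, where 7.31% of features were called higher, 3.40 after centring each array on its median (34.7% higher) and 2.70 after centring on the upper quartile (24.1% higher). PSAN passed under all 4 scalings (limma adjusted p from 2.74e-06 to 0.00490), while the median over all tested features went from −1.77 without scaling to 0.18 after median centring.

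The size of the change differed by replicate number. In deposited intensity, PSAN was brighter on WT arrays 1 and 2 (mean 5.09) than on WT arrays 3 and 4 (mean 3.63). In psah2k these sets overlapped on that scale, with means of 11.5 and 12.4. In quantile-normalized log2 values both genotypes split. WT arrays 1 and 2 (2.36 and 2.44) lay above WT arrays 3 and 4 (1.95 and 2.11), and psah2k arrays 1 and 2 (2.91 and 2.98) lay below psah2k arrays 3 and 4 (3.40 and 3.67). Over 1806 features, deviations from the WT mean correlated at 0.22 between WT arrays 1 and 2 and at 0.14 between 3 and 4, and at −0.45 to −0.70 between the other WT arrays. In psah2k the values were −0.22 between arrays 1 and 2, −0.15 between 3 and 4 and −0.35 to −0.46 between the others. Deviations from a mean over the same 4 arrays sum to 0, which by itself pulls such correlations below 0. In both genotypes the highest values were those between 1 and 2 and between 3 and 4. The quantile-normalized log2 fold change was 0.62 with numbers 1 and 2 only (limma adjusted p = 0.0297) and 1.44 with numbers 3 and 4 only (limma adjusted p = 0.0189). The difference between these values was not tested, and the labels do not say whether the numbers stand for plants, hybridisations or spots. With numbers 1-2 and 3-4 of each genotype averaged first, the PSAN call was lost (limma adjusted p = 0.0832), at a background of 14.7% called higher.

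**Figure D5:**
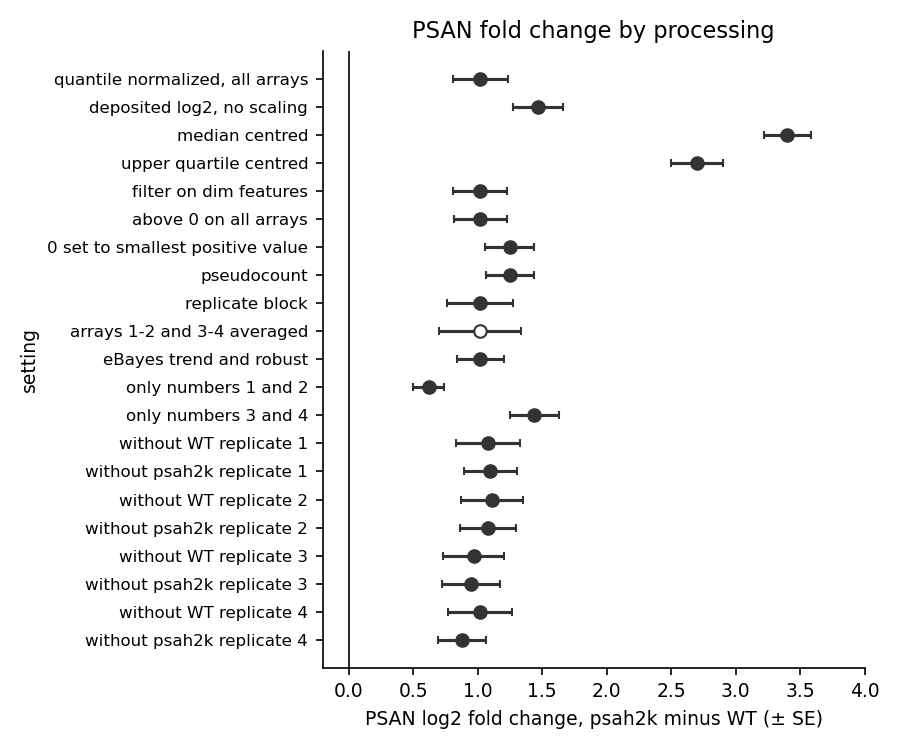
PSAN log2 fold change, psah2k minus WT, with its SE under each setting; filled points passed the test (limma adjusted p under 0.05) and open points did not. All points lie above 0, from 0.62 with numbers 1 and 2 only to 3.40 after median centring, and the open point is the fit with averaged pairs.

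Few genes that work with subunit N could be set beside it. Of the 61 genes in 8 lists other than PSAN, 5 had a feature of their own: 2 were called higher, 1 lower and 2 did not pass after quantile normalization, where 26.3% of all tested features were called higher and 26.6% lower. Their median log2 fold change was −0.60, against −0.12 over all tested features. PSAN was the 1 measured member of the 12 nuclear photosystem I subunits. None of the 6 antenna genes of photosystem I, the state transition enzymes or the 4 markers of non-green tissue had a feature of its own. Of the 15 genes for electron carriers and their enzymes around photosystem I, 1 was measured. It was AT2G04700, the catalytic subunit of ferredoxin-thioredoxin reductase, which takes electrons from ferredoxin downstream of photosystem I. Its intensities were 0.176, 0.157, 0.176 and 0.165 on WT arrays and 0.251, 0.236, 0.233 and 0.255 on psah2k arrays, without overlap. Its log2 fold change was 0.54 on this deposited scale (limma adjusted p = 0.00447) and 2.52 after quantile normalization (limma adjusted p = 1.89e-05). After upper quartile centring it was 1.77, and the gene was called higher under all 4 scalings. Over all tested features 7.31% to 34.7% were called higher under these scalings. The gene was dim: its mean of 0.168 in WT was below the median of every WT array. Its mean of 0.244 in psah2k was above the median of every psah2k array, as these medians were lower.

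The measured genes of photosystem I assembly and of import into the lumen did not pass after quantile normalization. AT1G22700, known as PYG7, is needed to accumulate photosystem I. It had 0.546, 0.529, 0.488 and 0.313 on WT arrays and 0, 0.0153, 0.0702 and 0.117 on psah2k arrays, and a log2 fold change of −1.12 (limma adjusted p = 0.163), from which the array at 0 was left out. SECE1, a subunit of the Sec translocase of the thylakoid, which is not the route of subunit N, had 0.562 ± 0.0255 and 0.115 ± 0.0542 (SD, n = 4 each). Its log2 fold change was −0.69 (limma adjusted p = 0.106), and −0.91 without psah2k array 3, where it passed (limma adjusted p = 0.0209). On the deposited scale both were dimmer on every psah2k array than on any WT array, and both passed as lower there (limma adjusted p = 0.00446 and 0.000463), as most features did. SECE1 also passed after upper quartile centring (log2 −1.19, limma adjusted p = 0.0416).

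Among bright photosynthetic genes, the change of PSAN was set against those of PSBY, PSBW and LHB1B2 within each array. Any scale factor of the array then drops out. These 3 were chosen with earlier results of these data known. Others were not compared in this way, among them PRK (deposited log2 change 1.11), NdhS (0.20) and PSB27 (−0.72). PSBY, a small photosystem II subunit, had 2.05, 2.01, 1.84 and 1.79 on WT arrays and 4.83, 4.49, 3.12 and 2.99 on psah2k arrays, without overlap, and was called higher (log2 0.83, limma adjusted p = 0.000794; 0.0556 with numbers 1-2 and 3-4 averaged). PSBW had 45.7, 45.3, 43.8 and 45.8 on WT arrays and 45.2, 43.2, 34.4 and 38.9 on psah2k arrays, where the genotypes overlapped. It was called lower after quantile normalization (log2 −0.60, limma adjusted p = 0.0298), a call lost without any one of 7 arrays, and its sign turned to 1.77 after median centring. PSBY and PSBW were the 2 measured of the 10 listed photosystem II subunits. LHB1B2 had 11.3, 13.6, 8.73 and 9.48 on WT arrays and 20.7, 19.2, 17.6 and 19.5 on psah2k arrays, without overlap, and was called higher without scaling (log2 0.86, limma adjusted p = 0.00251) and after median and upper quartile centring (2.80 and 2.09). After quantile normalization the log2 fold change of LHB1B2 was 0.01 (limma adjusted p = 0.961). Over all tested features, 7.18% were higher without overlap on the deposited scale. The shares called higher were 7.31% without scaling, 26.3% after quantile normalization, 34.7% after median centring and 24.1% after upper quartile centring. The log2 change of PSAN exceeded that of PSBW by 1.63 and that of LHB1B2 by 0.61 (exact permutation test, p = 0.0286 and, adjusted over the 3 pairs, 0.0429 for each). It exceeded that of PSBY by 0.49, which did not pass (exact permutation p = 0.114). With numbers 1-2 and 3-4 averaged first, the exact test cannot go below 0.333.

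The genes with a pattern most like that of PSAN were sought among 337 other features with 1 gene and values above 0 on all 8 arrays. Likeness was the root mean square difference over the 8 arrays, in quantile-normalized log2 values taken relative to the WT mean of each gene. A rise in psah2k on that scale was thus part of the choice. The nearest was AT1G32730, at 0.109 log2 units. It went from 1.59 ± 0.182 to 3.37 ± 0.604 (SD, n = 4 each), with a log2 fold change of 1.07. AT3G54210, which encodes plastid ribosomal protein L17, was next at 0.209, followed by AT5G19210 at 0.237, AT1G27610 at 0.241 and AT5G26850 at 0.266. Of these 5, AT1G32730 alone had genotypes that did not overlap and were higher in psah2k on the deposited scale. Over all tested features 7.18% were higher in this way. AT3G54210 and AT1G27610 had negative changes without scaling (log2 −0.30 and −0.89), where PSAN had 1.47. After median centring they had 1.64 and 1.05, and after upper quartile centring 0.93 and 0.34.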

How the data were processed

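The deposited table holds 1 intensity per feature and array, on a linear scale from 0 to 100; no source used here says what the authors did to background and scale. Gene names came from the platform annotation at GEO, which lists 1562 features (692 with 1 gene, 870 with several; 1877 unnamed here), and 690 of the 692 matched RefSeq. Samples were grouped by title, per the labels. Intensities were log2 transformed with values of 0 as missing, quantile normalized, and tested with limma 3.58.1 (lmFit, eBayes; R 4.3.3), two-sided, with Benjamini-Hochberg adjustment over 2353 features and a threshold of 0.05. After the fit, the same model was run on simulated data with 200 features changed, fewer than were called in these data. Values for 1 gene were compared by exact permutation tests over arrays (scipy 1.17.1). Percentile rank is the share of features below, plus ties at equal weight on both sides. The number of arrays limits the precision. PSAN, the lists, the comparisons within arrays and the tests were chosen with earlier results of these data known. Genes named were PSAN, list members with their own feature, the 3 neighbours on each side in WT intensity, the 5 most alike, and any of the 20 like-bright genes with a larger log2 change (none); others named, among them LHB1B2, were chosen after their values were seen. Same-numbered arrays deviated together only weakly (correlation 0.06 to 0.13 over 1806 features). All 8 arrays still correlated best with their own number in the other genotype. Numbers were not treated as pairs in the main tests, and a replicate block was run as an alternative. Alternatives covered scaling, filters, handling of values of 0 (pseudocount 0.0156), variance model, a replicate block, averaged arrays and each array left out.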

Additional observations from a re-analysis of the deposited data

How the results depend on the processing

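PSAN was higher in psah2k under every scaling, filter, treatment of 0, block and left-out array tried. Its log2 fold change was 0.88 to 1.11 with single arrays left out (limma adjusted p up to 0.0163), and 1.02 with the replicate block (adjusted p = 0.0317). It was 1.02 with arrays 1-2 and 3-4 averaged (adjusted p = 0.0832), where the intensity, rank and like-bright differences of 7.57, 1.42 and 1.71 had an exact p of 0.333, the smallest possible. With the replicate block, an exact sign permutation of the same 7.57, 1.42 and 1.71 gave p = 0.125, also the smallest possible. With single arrays left out these differences ranged from 6.84 to 7.98, 1.26 to 1.56 and 1.58 to 1.81, each with the smallest exact p possible, 0.0571. The like-bright difference was 1.35 to 2.01 over the other sets of genes. The call count of 1246 became 1890 without scaling, 689 with averaged arrays and 1087 with the replicate block, each of 2353 tested. It was 820 of 2329 with numbers 3 and 4 only, and 1025 to 1082 with arrays left out. Without a psah2k array only 1871 to 2020 features were tested, and the share called was 53.6% to 56.9%, against 53.0% with all arrays. Without a WT array this share was 43.7% to 45.6%. The share of higher calls went from 49.8% to 9.10%, 67.4% and 41.8% without scaling and after median and upper quartile centring, to 68.5% with 0 set to the smallest positive value and to 61.7% with a pseudocount. Of their 6 tested members, the lists had 4 calls, PSAN included, 5 without scaling and 5 after upper quartile centring. They had 3 to 4 with arrays left out, and 1 with averaged arrays. Over all tested features the shares called were 53.0%, 80.3% without scaling, 57.7% after upper quartile centring and 29.3% with averaged arrays. Signs turned for PSBW (1.77 and 1.06 after median and upper quartile centring), PRA1.B6 (0.00 without scaling, 1.94 and 1.23 after those centrings), AT3G54210 (−0.30) and AT1G27610 (−0.89) without scaling, and LHB1B2 (−0.25 with numbers 1 and 2 only, −0.04 to 0.13 with arrays left out, and called higher under the 3 other scalings). PSBW missed the threshold without any one of 7 arrays. The cause was not tested. All 8 arrays correlated best with the array of their own number in the other genotype, a hint from the data and not from the design.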
